A study of Homo sapiens with 2 samples.

Results

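The SOX genes encode transcription factors that bind and bend DNA through a shared high mobility group (HMG) box. SOX4, SOX11 and SOX12 form the SoxC group, SOX9 belongs to SoxE and SOX13 to SoxD. SOX4 and SOX9 are known for roles in progenitor cells and in the epithelial-mesenchymal transition of breast cancer cells, and SOX9 also directs cartilage formation. RNA-binding proteins and microRNAs act on the stability of such mRNAs mostly through the 3′UTR, the stretch after the coding sequence.

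RBMS3, an RNA-binding protein that prefers A- and U-rich RNA, was mapped by CLIP-seq in the human cell line MDA-MB-231, a long-established model of triple-negative breast cancer. Cells of the single group expressed FLAG-tagged RBMS3 and were irradiated at 254 nm with 400 mJ/cm2, and the tagged protein was recovered with its crosslinked RNA. The tags (unique sequenced RNA fragments) of the 2 biological replicates were pooled by the authors before sites were called, so the spread between replicates is unknown for every value given here. No library from cells without the tagged protein was used. A site is a position at which tags carry a deletion, which the method reads as the mark of the crosslinked protein, and each site has a number of covering tags and a number of tags with the deletion.

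The sites of SOX4, SOX9, SOX11, SOX12 and SOX13 were taken as the listed deletions on the same strand within these genes (GENCODE release 44, hg38). There were 11 such sites of 27706 in the list, and all 11 lay in 3′UTRs, which held 21230 sites in all. SOX4 had 7 sites, SOX9 had 3 and SOX12 had 1, whereas SOX11 and SOX13 had none. The genes were chosen with the site list in view, so these counts are a description. For orientation, 31.9% of the 19958 protein-coding genes with an annotated 3′UTR held at least 1 3′UTR site. The list gives bound positions and not RNA levels, so the absence of sites in SOX11 and SOX13 cannot be told apart from a low level of their RNA, and the identity of the cells could not be checked on marker genes.

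The sequences that carry the pattern are those of SOX4 and those near the end of SOX9. The SOX4 sites lay along the whole 3′UTR in unlike surroundings. In SOX9, the last AATAAA of the transcript lies between sites 2 and 3, closer to site 3. The single site of SOX12 is given as the one in C-rich sequence. Each line gives 29 nt of the transcript (hg38, plus strand) with 14 nt on each side of the listed deletion. Capitals mark the run of equal bases in which the deletion fell. A deletion within a run cannot be placed more exactly, and on the plus strand it is listed at the first base of the run.
SOX4 site 1, chr6:21595972-21596000: cagggagaagggccGGGGGGGGtaggaga
SOX4 site 2, chr6:21596034-21596062: ggacagacgaagagTTTaaagagaaaagg
SOX4 site 4, chr6:21596948-21596976: gcgagtggtttcggAAAAAAAAAAAgaaa
SOX4 site 5, chr6:21597118-21597146: agtttttaaaatagTgtaggataatataa
SOX4 site 6, chr6:21598439-21598467: tgccgtgtagaataTTTgtcttaaaattc
SOX4 site 7, chr6:21598562-21598590: cttctgtaaataacTTTTTTTgagaagga
SOX9 site 2, chr17:72126351-72126379: cctttttctttctcTTTTTTTTTTTTgta
SOX9 site 3, chr17:72126391-72126419: acaataaatatacaTTgcattaaaaagaa
SOX12 site 1, chr20:327829-327857: ggatccctgctgcaCCttccccaccccct

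SOX4, whose protein supports survival and the mesenchymal state of tumour cells, is a gene with a single exon on chromosome 6 from 21593751 to 21598619 (plus strand, ENSG00000124766.7). Its annotated 3′UTR of 2663 nt runs from 21595957 to 21598619 and begins with the stop codon. From the first to the last of the 7 sites the span was 97.3% of its length, with long stretches between them without a site. Joining sites within 50 nt of each other gave 6 clusters. At least 6 clusters were present in 53 genes, which is 0.266% of the protein-coding genes with a 3′UTR and 0.832% of the 6372 genes with a 3′UTR site; this count was part of the choice of the gene.

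The first 2 SOX4 sites lay next to the stop codon. Site 1, at nt 30 of the 3′UTR (position 21595986), had 66 deletions in 1568 tags (4.21%, 95% Wilson interval 3.32 to 5.32%). Site 2, at nt 92 (position 21596048), had 52 deletions in 1385 tags (3.75%, interval 2.87 to 4.89%). They were the sites farthest from the annotated transcript end, at 2633 and 2571 nt, and their intervals overlapped. The deletion of site 1 fell in a run of 8 G, and only 33.3% of the bases in its 51-nt window (25 nt on each side) were A or T, against 58.2% of the SOX4 3′UTR. The deletion of site 2 fell in a run of 3 T in a window with 66.7% A or T.

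After a stretch of 877 nt without a site, 3 sites followed in the middle of the 3′UTR. Site 3, at nt 969 (position 21596925), had 61 deletions in 3122 tags (1.95%, interval 1.52 to 2.50%). Site 4, 37 nt further on (position 21596962), had the most tags of the gene, 5653, and the fewest deletions among its sites in the low percentage class, 37 (0.655%, interval 0.475 to 0.901%). Its interval overlapped with that of no other SOX4 site. Site 4 lay at the first base of a run of 11 A that opened a nearly pure A stretch, and site 3 at a pair of G upstream of the same stretch.

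Site 5, at nt 1176 (position 21597132), differed from all other SOX4 sites in its counts. It had 21 deletions in only 24 tags (87.5%, interval 69.0 to 95.7%), 170 nt downstream of site 4 with its 5653 tags. It was the only SOX4 site whose deleted base, a T, had no equal neighbour, and the only one away from the transcript end with the AUA motif in its window. The motif was searched as ATA preceded by A or T and, before that, by A, G or T, and followed by A or T and then by A. It matched here in 2 overlapping places, starting 7 and 9 nt downstream of the deletion.

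The last 2 sites approached the transcript end after a gap of 1321 nt, the longest of the gene. Site 6, at nt 2497 (position 21598453) and 166 nt from the end, had 48 deletions in 1112 tags (4.32%, interval 3.27 to 5.68%) in a run of 3 T. The listed interval of this site is contained, base for base, in the SOX4 reporter of the study. Site 7, at nt 2620 (position 21598576) and 43 nt from the end, had 48 deletions in 1615 tags (2.97%, interval 2.25 to 3.92%) in a run of 7 T.

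Site 7 was the only SOX4 site with a poly(A) signal, the hexamer that directs cleavage and polyadenylation, in its window. The signal AATAAA started 15 nt downstream of the deletion, at 21598591 to 21598596, and it was the only AATAAA in the SOX4 3′UTR, which held no ATTAAA. The same window held 2 matches of the AUA motif, 1 starting 22 nt upstream of the deletion and 1 that contained the signal itself. It also held TGTANATA, the element of the PUMILIO proteins, which destabilise many mRNAs. That element started 10 nt upstream of the deletion and was the only one in the SOX4 3′UTR. TGTANATA was present in 3.71% of the windows of all 3′UTR sites.

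**Figure D1:**
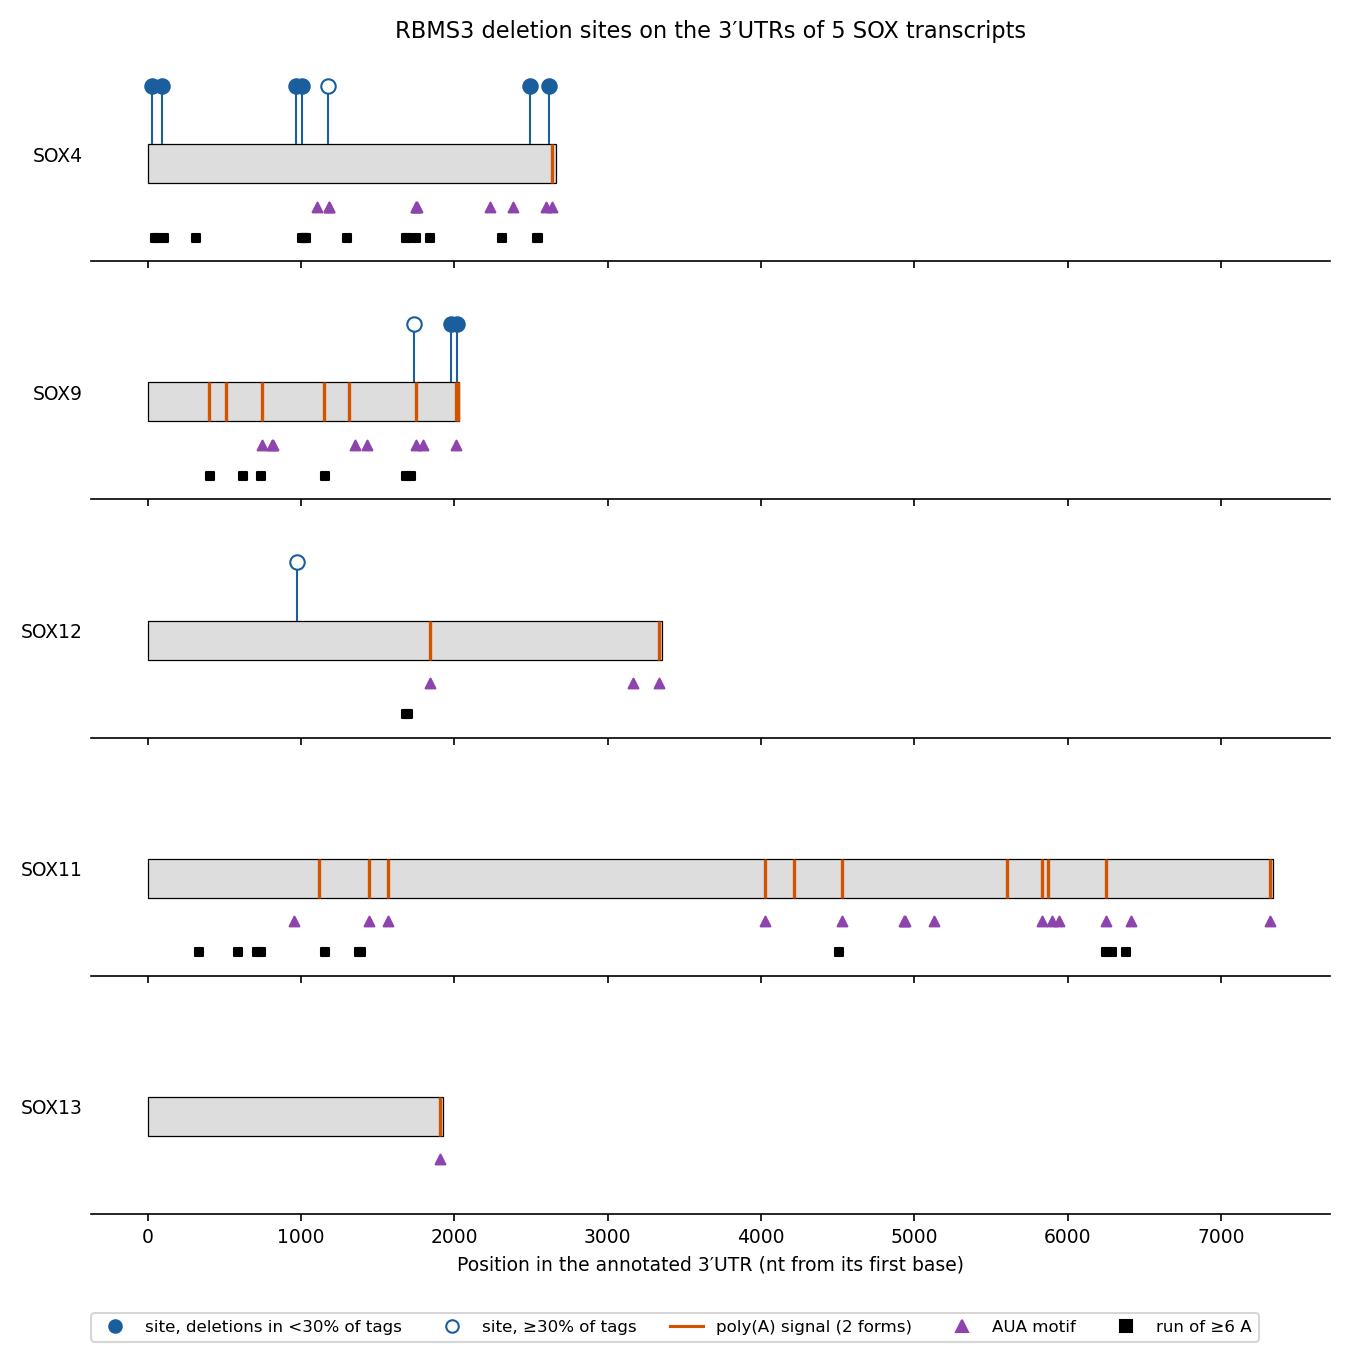
Map of the annotated 3′UTRs of SOX4, SOX9, SOX12, SOX11 and SOX13 in nt from their first base, with RBMS3 sites as circles (filled, deletions in under 30% of the tags; open, 30% or more), poly(A) signals (AATAAA or ATTAAA) as bars, matches of the AUA motif as triangles and runs of at least 6 A as squares. The 7 SOX4 sites run from nt 30 to nt 2620, the 3 SOX9 sites lie from nt 1737 onwards, and SOX11 and SOX13 have no circle.

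The internal SOX4 sites had runs of A downstream and lacked the motifs. Leaving out site 5 with its few tags, 5 sites (1, 2, 3, 4 and 6) had a deletion percentage under 30 and lay more than 100 nt from the end. At all 5, a run of at least 6 A lay within the next 60 nt. The longest such run had 9 A at site 1, 6 at site 2, 11 at site 3, 10 at site 4, apart from the run that holds its deletion, and 8 at site 6. The 11 A counted for site 3 are the run that holds the deletion of site 4, so these 2 sites share a stretch of A. Among the 5049 3′UTR sites of all genes with the same percentage class and distance, 929 (18.4%) had such a run. None of the 5 windows held AATAAA or ATTAAA, which were present at 63.6% of the 5049 sites, and none held the AUA motif, which was present at 52.0%.

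The SOX4 3′UTR is rich in such runs. It holds 16 runs of at least 6 A, of which 9 had a site within 60 nt upstream and 7 had none, among them its longest run of 12 A at 21596270 to 21596281. Counted over every position of the 3′UTR, 22.6% of the 2663 positions had a run of at least 6 A within the next 60 nt, against 4.93% of the positions of all annotated 3′UTRs. In this protocol the RNA received a poly(A) tail and was captured on and primed from oligo(dT). The part of genomic runs of A in the tags at these sites was not tested. The run length and the distance were set after the sites had been seen. With at least 8 A the count was 4 of 5 against 10.1% of the 5049 sites, and with runs within 30 nt it was 3 of 5 against 10.4%.

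**Figure D2:**
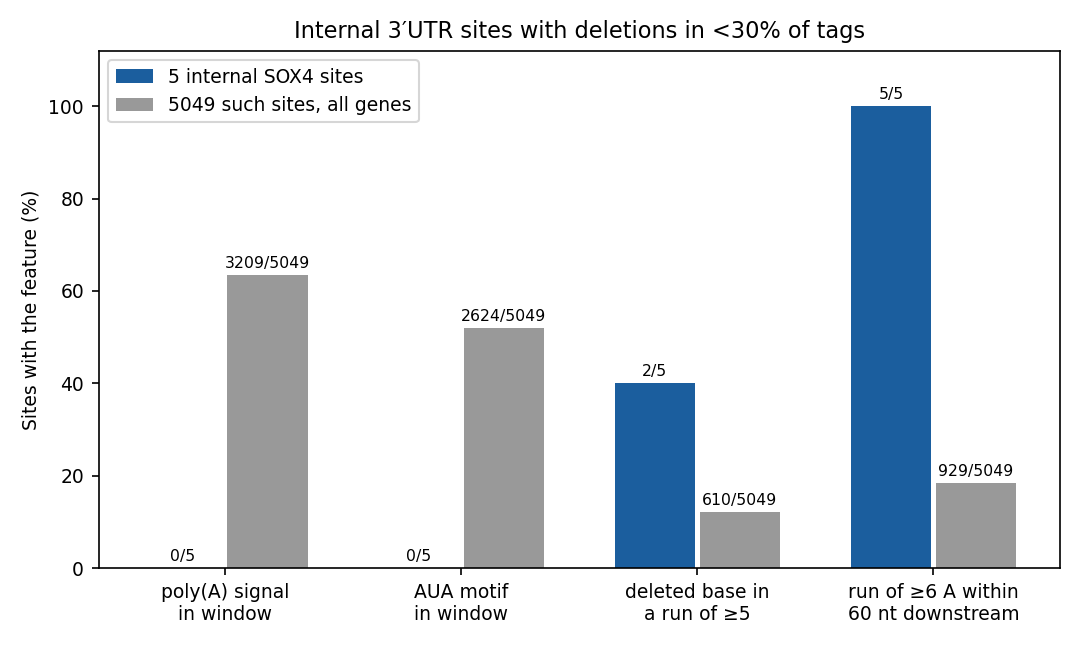
Percentage of sites with each of 4 sequence features among the 5 internal SOX4 sites and the 5049 internal 3′UTR sites of all genes, both of the class under 30% and more than 100 nt from a transcript end; numbers above the bars are counts. The 5 SOX4 sites all have a run of A downstream, against 18.4% of the others, and none has a poly(A) signal or AUA motif in its window. The 5 sites share a transcript and are not independent.

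Matches of the AUA motif in SOX4 lay both in the windows of sites and outside them. The 3′UTR held 10 matches, of which 4 lay in the window of a site (2 at site 5 and 2 at site 7). The 7 windows of 51 nt cover only a small part of the 2663 nt, and the counts were not set against that part. Between sites 5 and 6, where no site was listed over 1321 nt, 5 matches lay outside any window. Those at nt 1751, 1753 and 1755 overlap in a single place, and overlapping matches are counted separately throughout. The density of 3.76 matches per kb exceeded the 2.41 per kb of all annotated 3′UTRs. ATTTA, the AU-rich pentamer of unstable mRNAs, occurred 4 times in the SOX4 3′UTR and in the window of 0 SOX4 sites.

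SOX9, the factor of cartilage and of several epithelial progenitors, lies on chromosome 17 from 72121020 to 72126416 (plus strand, ENSG00000125398.8) and has a 3′UTR of 2032 nt. In contrast to SOX4, its 3 sites lay within the last 295 nt of the transcript. Site 1, at nt 1737 (position 72126121) and 295 nt from the end, had 10 deletions in 26 tags (38.5%, interval 22.4 to 57.5%) in a run of 4 T. Site 2, at nt 1981 (position 72126365) and 51 nt from the end, had 159 deletions in 1424 tags (11.2%, interval 9.63 to 12.9%). Site 3, at nt 2021 (position 72126405) and 11 nt from the end, had 64 deletions in 6307 tags (1.01%, interval 0.796 to 1.29%). The 3 intervals did not overlap.

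Site 2 of SOX9 had the most deletions of all 11 sites, more than 84.3% of all 3′UTR sites. Its deletion fell in a run of 12 T, and its window held neither poly(A) signal nor AUA motif. The window ended just before the AATAAA at 72126393 to 72126398. Site 3 followed 40 nt downstream, so both formed 1 cluster. At site 3 the signal AATAAA started 12 nt upstream of the deletion, at 72126393 to 72126398, and the AUA motif started 9 nt upstream. A second form of the signal, ATTAAA, started 4 nt downstream. The listed deletion thus lay upstream of the last AATAAA of the transcript at SOX4 site 7 and SOX9 site 2. At SOX9 site 3 it lay downstream of it. At site 1, AATAAA started 16 nt downstream of the deletion, where the AUA motif matched only together with the signal. The SOX9 3′UTR held 3 copies of AATAAA and 5 of ATTAAA, of which 2 and 1 lay in the window of a site, and 2 of its 8 matches of the AUA motif did so. None of the 3 sites had a run of at least 6 A within 60 nt downstream, which was present at 12.3% of all 3′UTR sites. The search followed the genome sequence, so at sites 2 and 3, close to the end, it ran past the transcript. The same holds for other sites close to an end, so these values do not describe the RNA alone. The SOX9 3′UTR held 6 such runs, and 15.6% of its positions had one within the next 60 nt, against 4.93% for all annotated 3′UTRs. ATTTA occurred 8 times in the SOX9 3′UTR, 1 of them in the window of site 1, and was in the windows of 21.5% of all 3′UTR sites. The 3 windows had 82.4, 78.4 and 74.5% A or T in order along the transcript, against 64.6% of the SOX9 3′UTR.

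SOX12, like SOX4 a SoxC gene, lies on chromosome 20 from 325552 to 330224 (plus strand, ENSG00000177732.9) and has a 3′UTR of 3355 nt, of which 42.8% is A or T. Its single site, at nt 974 (position 327843) and 2381 nt from the end, had the deletion in 13 of 13 tags (100%, interval 77.2 to 100%). The deleted base was the first of a pair of C in a window with 33.3% A or T and without any of the motifs searched. The 3 matches of the AUA motif and the 2 copies of AATAAA in this 3′UTR lay outside the window.

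SOX11, the third SoxC gene, known from neural progenitors, had no site although its 3′UTR of 7341 nt (chromosome 2, 5694045 to 5701385) was the longest of the 5 genes, with 14 matches of the AUA motif, 10 copies of AATAAA, 1 of ATTAAA and 11 runs of at least 6 A, the longest with 14 A. SOX13, known from the development of T cells, had no site in a 3′UTR of 1928 nt (chromosome 1), with 1 match of the AUA motif, 1 copy of AATAAA and no run of at least 6 A. None of the 5 genes had a site on the opposite strand, and none had a site on its own strand within 10 kb downstream of its end.

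**Figure D3:**
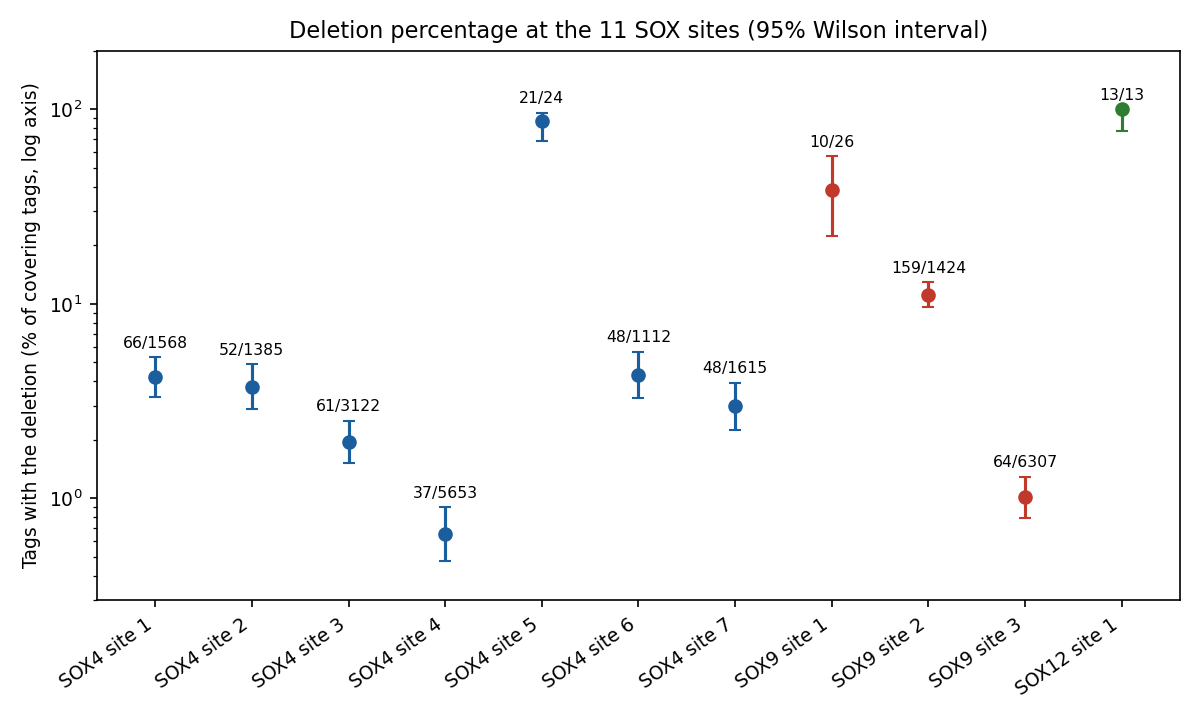
Percentage of covering tags with the deletion at each of the 11 SOX sites (log axis), with 95% Wilson intervals that cover counting error only; labels give deletions over tags. SOX4 site 5, SOX9 site 1 and SOX12 site 1 have at most 26 tags and lie at 38.5% or more, and the other 8 sites lie between 0.655 and 11.2%.

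The 11 sites fell into the same 2 classes as the list as a whole. At 8 sites under 30% of the tags carried the deletion, and these sites had 1112 to 6307 tags (median 1591.5) and 37 to 159 deletions. The class at 30% or more held 3 of the 11 sites, against 12.9% of all 3′UTR sites and 29.9% of all listed sites. These 3 sites, 1 in each of SOX4, SOX9 and SOX12, had 13 to 26 tags and 10 to 21 deletions. SOX4 and SOX9 thus held both classes within a single 3′UTR, as did 21.8% of the 6372 genes with a 3′UTR site. For SOX9 this rests on site 1, whose interval of 22.4 to 57.5% includes the limit of 30%. In all 3′UTR sites of the low class the median was 6324 tags and 72 deletions, and the fewest deletions were 32. The 37 deletions of SOX4 site 4 lay close to this lower edge. The 6 SOX4 sites of the low class had more deletions than 12.5 to 51.0% of all 3′UTR sites. In the high class the median over all 3′UTR sites was 19 tags.

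**Figure D4:**
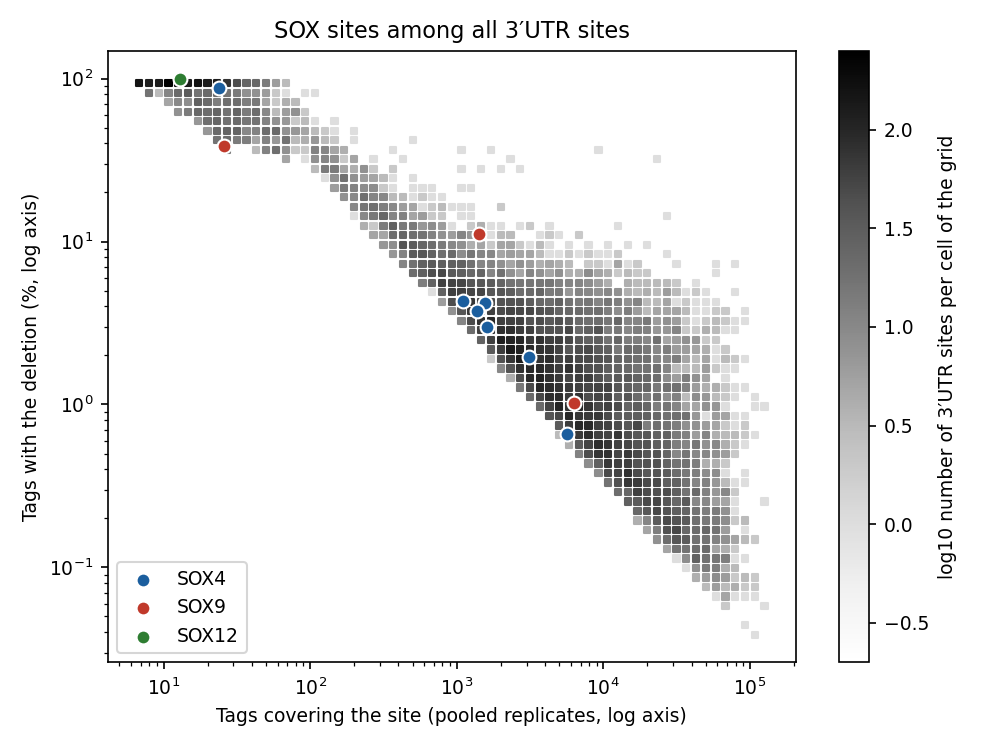
Tags covering a site against the percentage of them with the deletion (log axes) for the 3′UTR sites of all genes (grey, darker for more sites) and the SOX sites (SOX4 blue, SOX9 red, SOX12 green). The 6 SOX4 sites of the low class have 1112 to 5653 tags, with site 4 at the lower edge of the grey field, SOX9 site 2 lies at 11.2% of 1424 tags, and 3 SOX sites lie among those with few tags.

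The deleted base was T at 7 of the 11 sites, G at 2, A at 1 and C at 1, against 65.5, 5.91, 21.5 and 7.12% of all 3′UTR sites. Both G sites were in SOX4. The deletion fell in a run of at least 5 equal bases at 4 of the 11 sites (SOX4 sites 1, 4 and 7 and SOX9 site 2), against 10.7% of all 3′UTR sites. Percentages were set beside those of 3′UTR sites of the low class with the same base and run class. For T in runs of at least 10, 62 sites had a median of 9.94% (quartiles 6.71 and 13.3%), which enclosed the 11.2% of SOX9 site 2. For A in runs of at least 10, 71 sites had a median of 2.65% (quartiles 1.68 and 4.86%), above the 0.655% of SOX4 site 4. For G in runs of 5 to 9, 20 sites had a median of 1.81% (quartiles 1.18 and 2.95%), below the 4.21% of SOX4 site 1. For T in runs of 3, 4962 sites had a median of 2.90% (quartiles 1.81 and 4.76%), which enclosed the 3.75 and 4.32% of SOX4 sites 2 and 6. The quartiles also enclosed the 2.97% of SOX4 site 7 (T in runs of 5 to 9, 1488 sites, quartiles 2.07 and 5.16%) and the 1.01% of SOX9 site 3 (T in runs of 2, 2651 sites, quartiles 0.496 and 1.65%). The 1.95% of SOX4 site 3 lay above the upper quartile of G in runs of 2 (402 sites, quartiles 0.449 and 1.79%). These percentages also depend on the tags of each site.

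Most SOX4 sites lay far from the transcript end. The 11 sites had a median distance of 1487 nt (range 11 to 2633 nt), the 7 SOX4 sites 1657 nt and the 3 SOX9 sites 51 nt, compared with 38 nt for all 21230 3′UTR sites. SOX4, SOX9 and SOX12 each have 1 annotated end, whereas in genes with several ends the nearest was taken. Sites within 100 nt of an end made up 3 of 11, against 65.9% of all 3′UTR sites. Windows with AATAAA or ATTAAA made up 3 of 11 against 65.4%, and windows with the AUA motif 4 of 11 against 51.7%. An AUA match that did not contain AATAAA was present at 3 of 11 sites (SOX4 sites 5 and 7 and SOX9 site 3) against 15.5%. No test was made on these shares, because the sites of a transcript are not independent and the genes were chosen on their sites.

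To find genes bound like SOX4, 879 other genes with at least 3 clusters were compared by 5 features (clusters, sites, 3′UTR length, the share of the 3′UTR that the sites span, and the highest tag number, counts and lengths on a log scale and each feature divided by its SD). The nearest were ARF6, a GTPase of membrane traffic (distance 0.356 SD units), TGFB2, a ligand of the transforming growth factor-β pathway (0.833), and ARHGAP11A (0.979). ARF6 had 8 sites in 6 clusters over 95.3% of 2793 nt, and TGFB2 had 9 sites in 6 clusters over 95.6% of 3260 nt. In features that the distance did not use, these genes were in part like SOX4 and in part unlike it. Sites within 100 nt of an end made up 3 of 8 in ARF6, 1 of 9 in TGFB2 and 1 of 6 in ARHGAP11A, against 1 of 7 in SOX4. Sites of the class at 30% or more numbered 4, 3 and 1, against 1 in SOX4, and windows with the AUA motif 3, 4 and 0, against 2 in SOX4. Of internal sites in the low class, a run of at least 6 A within 60 nt downstream was present at 1 of 1 in ARF6, 0 of 6 in TGFB2 and 0 of 4 in ARHGAP11A, against 5 of 5 in SOX4. A poly(A) signal was in the window of 3 of 8, 4 of 9 and 3 of 6 sites, against 1 of 7 in SOX4.

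Among the 14 other SOX genes, none had a site on its own strand. As for SOX11 and SOX13, this absence cannot be told apart from a low level of their RNA. Of 7 transcription factors with an HMG box outside the SOX family, 4 had a 3′UTR site, where 31.9% of all protein-coding genes with a 3′UTR had one. BBX had 7 such sites in 4 clusters, and its site with most deletions had 183 in 4774 tags (3.83%, interval 3.32 to 4.42%). HBP1, a repressor of the cell cycle, had 4 sites, with at most 49 deletions (5764 tags, 0.850%). TCF7L2, an effector of Wnt signalling, had 2, with at most 107 deletions (5786 tags, 1.85%), and LEF1 had 1 (11 of 14 tags, 78.6%). TCF7, TCF7L1 and CIC had none in their 3′UTRs, while CIC had 1 site on its own strand outside the 3′UTR.

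Of 6 proteins known to bind or modify SOX proteins, 5 had 3′UTR sites in their transcripts, beside the same 31.9% of all genes. SDCBP (syntenin), which binds SOX4 protein, had 16 sites in 1 cluster, all within 100 nt of an end, and at most 486 deletions (22941 tags, 2.12%). CTNNB1 (β-catenin) had 11 sites and at most 542 deletions (21060 tags, 2.57%), at 12 nt from an end. GSK3B, EP300 and CREBBP had 3, 2 and 1 sites, and FBXW7, a ubiquitin ligase subunit for SOX9, had none in its 3′UTR. On its own strand, FBXW7 had 2 sites outside the 3′UTR. Of 7 known target genes of SOX4, SOX11 or SOX9, 1 had sites, TUBB3, a neuronal tubulin, again beside 31.9% of all genes. No test was made on these 3 lists, which are short. Its 4 sites were within 100 nt of an end, with at most 120 deletions (4957 tags, 2.42%). EZH2, TEAD2, COL2A1, ACAN, COL11A2 and MATN1 had none. For all genes of these lists without a 3′UTR site, the absence cannot be told apart from a low RNA level.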

How the data were processed

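The CLIP-seq data are from 2 biological replicates of 1 group, cells with FLAG-tagged RBMS3. Replicate 2 is MDA-MB-231 by its title, although 2 of its other labels number the line differently. The authors appended molecular identifiers, aligned to hg38 and called deletion sites on pooled unique tags with the CLIP Tool Kit, at a false discovery rate under 10% and a fold over 10, which the sources used here do not define further. The deposited values are counts, not normalized, of covering tags and of tags with the deletion at each site. Library depths were not analysed, so depth is given per site.

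The central base of each 21-nt interval was taken as the deletion and placed on GENCODE release 44 by strand, with 3′UTRs taking precedence over other features. Sites in the 3′UTRs of several genes counted for each. The distance to an end is to the nearest downstream end of a coding transcript of the gene. Motifs were searched on the transcript strand in 51-nt windows, for both forms of the poly(A) signal, ATTTA and TGTANATA. The AUA motif was also searched and can overlap AATAAA. Wilson intervals (95%) cover counting error only. Likeness to SOX4 is a Euclidean distance. The 5 members and all lists were chosen with earlier results of these data known, and no hypothesis test was made. The text names the 5 members in full and, of each list, the genes with a 3′UTR site, with values at the site with most deletions. Sequences are from hg38, and the placement and motif functions were tested on simulated data. Python 3.11.15, numpy 2.4.6, pysam 0.24.0 and matplotlib 3.10.9 were used.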

Additional observations from a re-analysis of the deposited data

How the results depend on the processing

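Filters on the sites changed the counts most. With at least 50 deletions per site, 5 SOX sites in 4 clusters remained, of which 3 sites in 3 clusters were in SOX4. With deletions in at least 10% of the tags, 4 sites in 4 clusters remained, of which 1 site in 1 cluster was in SOX4. These filters use fewer sites by construction. With windows of 10 nt on each side, a poly(A) signal and the AUA motif were each present at 9.09% of the 11 sites, as the shorter window holds fewer positions. The other alternatives (strand ignored, at least 20 deletions, deletions in under 30% of the tags, any overlap of the interval, the representative transcript, clusters within 10 or 100 nt, 1 site per cluster, windows of 50 nt, other motif definitions) moved no count by more than 1.5 times and no share past the counting interval of the 11 sites. The median distance to an end ranged from 891 to 1694 nt. No paired analysis was possible because both replicates belong to 1 group and were pooled, which also leaves no replicate to take out. Depth limits the 3 sites with at most 26 tags.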

Other observations

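Beside the coding genes, 5 noncoding genes are named after SOX genes as antisense or overlapping transcripts, and 1 of them held a site. No share over all noncoding genes stands beside this count, so it is a description only. In an intron of SOX21-AS1 (chromosome 13, position 94780317, plus strand), 67 of 375 tags carried a deleted C (17.9%, 95% Wilson interval 14.3 to 22.1%), with AATAAA and the AUA motif in its window. SOX15 on chromosome 17 overlapped 2 sites on the opposite strand, at 7588178 (46 of 3655 tags) and 7588196 (100 of 1738 tags), which lie in the 3′UTR of MPDU1, a gene of protein glycosylation. Without strand these sites would have been read as SOX15.

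The microRNA miR-335-5p is known as a repressor of SOX4 in breast cancer cells. Its mature sequence (RefSeq, GRCh38.p14) with the seed, bases 2 to 8, in capitals reads as follows.
hsa-miR-335-5p: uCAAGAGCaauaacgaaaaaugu
The letters GCTCTTG, which pair with the seed, were in the 3′UTR of 0 of the 5 SOX genes and in 15.9% of all annotated 3′UTRs. The shorter CTCTTG, which pairs with bases 2 to 7 and was added after this search, occurred once in SOX9, 147 nt from the nearest site, 2 times in SOX11 and not in SOX4, and in 45.7% of all 3′UTRs.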
